A study of Hordeum vulgare subsp. vulgare with 8 samples.

Results

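The transcripts of 2 genes were described in germinating barley embryos: MLOC_77777, annotated as a late embryogenesis abundant (LEA) protein, and MLOC_59149, annotated as a lectin. They are 2 of the 4634 genes that had an alternative 3' splicing (A3S) or alternative 5' splicing (A5S) event in at least 1 library. Both were chosen by their read depth and because they were listed in all 8 libraries. Their high depth and their presence in every library are therefore descriptions and were not tested. Earlier results of these data were known when they were chosen, so the tests of time below are not independent of the choice. Every row with either identifier was taken, which gave 27 listed events of 15995, and 10 distinct events of 8325.

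Embryos were taken at 48 h and 24 h of imbibition in water at 21 °C in the dark from the barley varieties Bass, Harrington, Stirling and Baudin, and each library came from pooled embryos of a single variety at a single time. The 4 varieties are the only replicates of a time, and the spread between them includes their genetic differences. The GEO source label reads germinating seeds, whereas the methods describe embryos separated from the endosperm. Marker genes of the embryo could not be checked, because the deposited lists cover only genes with a called splicing event.

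LEA proteins are hydrophilic proteins that accumulate in the embryo late in seed maturation and are known for their association with tolerance of drying. Lectins are proteins that bind carbohydrates, and the embryos of cereals are known to store lectins that bind chitin oligomers. Whether MLOC_59149 encodes a lectin of this kind was not examined. In A3S the intron ends at another acceptor site, so the downstream exon begins earlier or later. In A5S the intron starts at another donor site, so the upstream exon ends earlier or later. Each listed event names a constitutive exon, an annotated exon and the alternative form of the annotated exon, with the mean read depth of each. An exon is long or short by its bases and deep or shallow by its reads, and a depth is already per base.

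MLOC_77777 lies on the plus strand of linkage group LG02 of the Morex genome (IBSC), in the coordinates of the deposited lists. Its constitutive exon of 60 nt runs from 146330625 to 146330684 and is followed by an intron of 93 nt and an annotated exon of 525 nt, from 146330778 to 146331302. The gene had A3S events in all 8 libraries and no A5S event. Its 5 distinct events all concerned the acceptor of the 525 nt exon, and all of them shortened it. The alternative exon began 3, 6, 15, 33 or 66 nt after the annotated start, and every one of these distances is a multiple of 3, so the reading frame would be kept if this part of the exon is coding. Over the whole series, 39.7% of the 5473 distinct A3S events changed the exon by a multiple of 3. Reading frames are not in the lists.

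The acceptor 6 nt downstream, at 146330784, was listed in all 8 libraries, which was so for 136 of the 5473 distinct A3S events (2.48%). The other 4 acceptors were listed in 1 or 2 libraries each. The acceptor 3 nt downstream was listed in Stirling and Baudin at 24 h and in no library at 48 h. The acceptors 15 nt and 33 nt downstream were listed in Stirling at 48 h, and the acceptor 66 nt downstream in Baudin at 48 h. Bass and Harrington listed the 6 nt event alone at both times. Absence from a list is not a measured 0, since the number of reads examined at a site is not given.

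With 5 alternative acceptors, this exon had as many as any of the 4774 exon pairs with A3S. Such a number was reached by 5 exon pairs (0.105%), whereas 87.6% had a single alternative acceptor. Depth moves with this count: pairs with at least 3 alternative acceptors (87 pairs) had a median exon depth of 85.7, pairs with 1 had 24.9, and the LEA exon had a mean depth of 2405. The part of depth in the number of acceptors was not tested. The other exons with 5 acceptors, named after their values were seen, were of MLOC_60404 (mean depth 18.6), MLOC_17938 (37.3), MLOC_18775 (146) and MLOC_73576 (5481).

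MLOC_59149 lies on the plus strand of linkage group LG01, and its events name 4 exons. Exon 1 runs from 88596186 to 88596593 (408 nt), exon 2 from 88596687 to 88596809 (123 nt), exon 3 from 88596907 to 88597133 (227 nt) and exon 4 from 88597212 to 88597329 (118 nt). The gene had A5S in all 8 libraries and A3S in 4 of them. Its 5 distinct events concerned the donor of exon 1, the donor of exon 3 and the acceptor of exon 4. None of the distances, 44, 4, 2, 2 and 14 nt, is a multiple of 3, so each would shift the frame if the site is within the coding part. For comparison, 33.1% of the 2852 distinct A5S events were multiples of 3.

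The donor of exon 1 that ends the exon 44 nt early, at 88596549, was listed in all 8 libraries, as were 37 of the 2852 distinct A5S events (1.30%). It lengthens the first of these introns to 137 nt, against 93 nt for the annotated one. The remaining events were listed in 1 or 2 libraries. At the donor of exon 3, a site 4 nt further downstream was listed in Harrington at 48 h and a site 2 nt upstream in Baudin at 48 h. At the acceptor of exon 4, a site 14 nt downstream was listed in Baudin at 48 h and Bass at 24 h, and a site 2 nt downstream was listed in Harrington and Stirling at 24 h. The 4 nt event of exon 3 was the only one of the 10 distinct events of both genes that lengthened the exon.

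**Figure D1:**
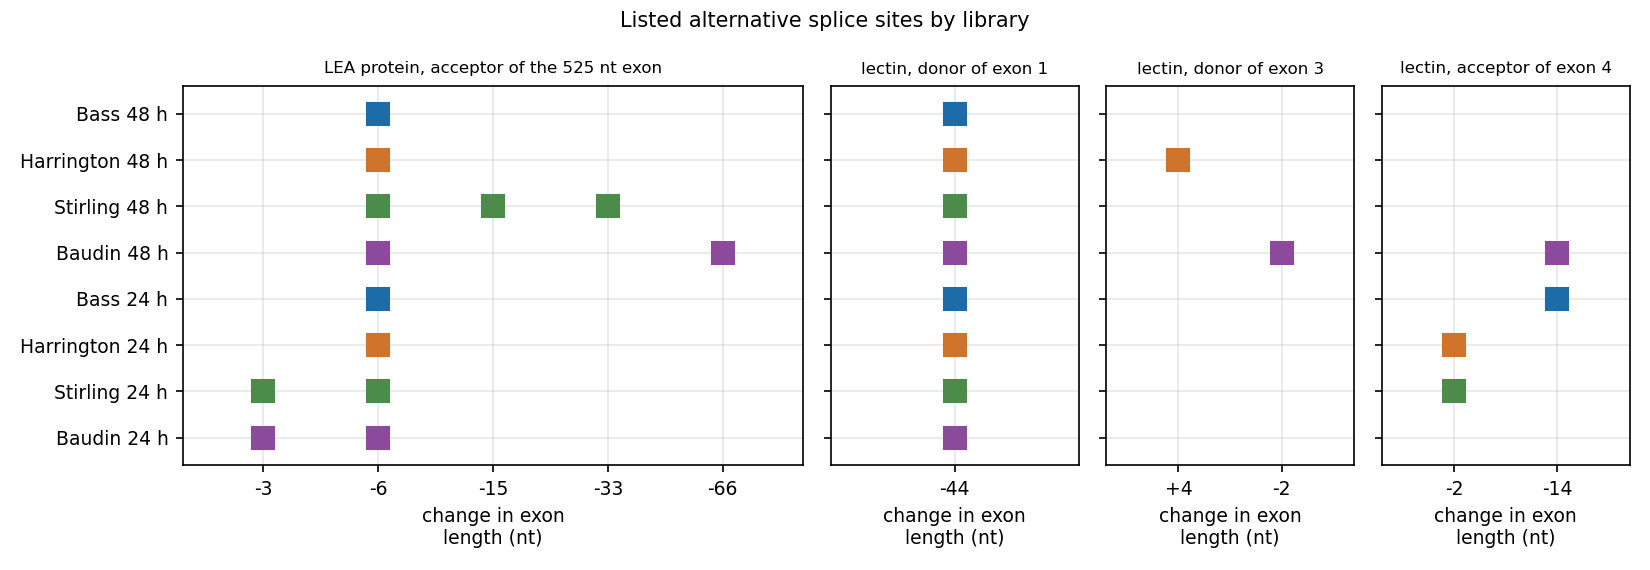
Alternative splice sites of MLOC_77777 and MLOC_59149 (x axis: change in exon length in nt) listed in each library (y axis), with a square where the event is listed and colours for the varieties. The 6 nt acceptor of the LEA gene and the 44 nt donor of the lectin gene appear in all 8 libraries, and each other site in 1 or 2.

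The exon depth of both genes was higher at 48 h than at 24 h in all 4 varieties, and 22.7% of the 374 exons listed in all 8 libraries were higher in all 4 varieties after scaling. In these bulk samples, fewer cells of a type and less RNA per cell cannot be told apart. The 525 nt exon of the LEA gene had a depth of 5415 in Harrington, 4541 in Bass, 3872 in Stirling and 2098 in Baudin at 48 h. At 24 h it had a depth of 584 in Harrington, 454 in Bass, 1967 in Stirling and 309.9 in Baudin. The times did not overlap, but the lowest depth at 48 h, in Baudin, was close to the highest at 24 h, in Stirling. Such a separation, higher at 48 h, was found for 7.22% of the 374 exons in deposited depth and for 13.6% in scaled depth. The mean was 3982 ± 1406 at 48 h and 829 ± 767 at 24 h (SD, n = 4 varieties).

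These depths are not scaled for library size. Scaling used the median, over the 374 exons, of each exon's log2 deviation from its own mean over the 8 libraries. This median shifted by -0.10 in Harrington, -0.27 in Bass, -0.20 in Stirling and -0.24 in Baudin, 48 h over 24 h. Changes are given relative to this median, as log2(depth + 0.5). The LEA exon was then 9.92-fold higher at 48 h in Harrington, 12.1-fold in Bass, 7.98-fold in Baudin and 2.26-fold in Stirling. The mean log2 change was 2.77 ± 1.09 (SD, n = 4; 4 of 4 varieties higher; two-sided exact test by sign flips within pairs, p = 0.13, the lowest that 4 pairs can give). Stirling had the smallest increase and the highest depth at 24 h.

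The constitutive exon of 60 nt moved the same way in every variety. Its depth was 811 in Harrington, 736 in Bass, 654 in Stirling and 14.0 in Baudin at 48 h. At 24 h its depth was 131 in Harrington, 88.4 in Bass, 458 in Stirling and 3.48 in Baudin. Here the times overlapped, because Baudin was far below the other varieties at both. The mean log2 change was 2.22 ± 1.12 (SD, n = 4; two-sided exact test by sign flips within pairs, p = 0.13).

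Exon 1 of the lectin gene had a depth of 2826 in Harrington, 1166 in Bass, 1287 in Stirling and 2081 in Baudin at 48 h. At 24 h its depth was 654 in Harrington, 323 in Bass, 769 in Stirling and 421 in Baudin. The times did not overlap, and Stirling again had the highest depth at 24 h. The mean was 1839.9 ± 772 at 48 h and 542 ± 205 at 24 h (SD, n = 4). The scaled depth was 4.63-fold higher at 48 h in Harrington, 4.35-fold in Bass, 1.92-fold in Stirling and 5.83-fold in Baudin, a mean log2 change of 1.95 ± 0.70 (SD, n = 4; two-sided exact test by sign flips within pairs, p = 0.13).

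Exon 2 of the lectin gene had a depth of 1272 in Harrington, 501 in Bass, 618 in Stirling and 874 in Baudin at 48 h. At 24 h its depth was 188 in Harrington, 131 in Bass, 301 in Stirling and 136 in Baudin. The times did not overlap. Its mean log2 change was 2.30 ± 0.78 (SD, n = 4; 4 of 4 varieties higher; two-sided exact test by sign flips within pairs, p = 0.13). Stirling had the smallest increase, as for the other 3 exons.

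**Figure D2:**
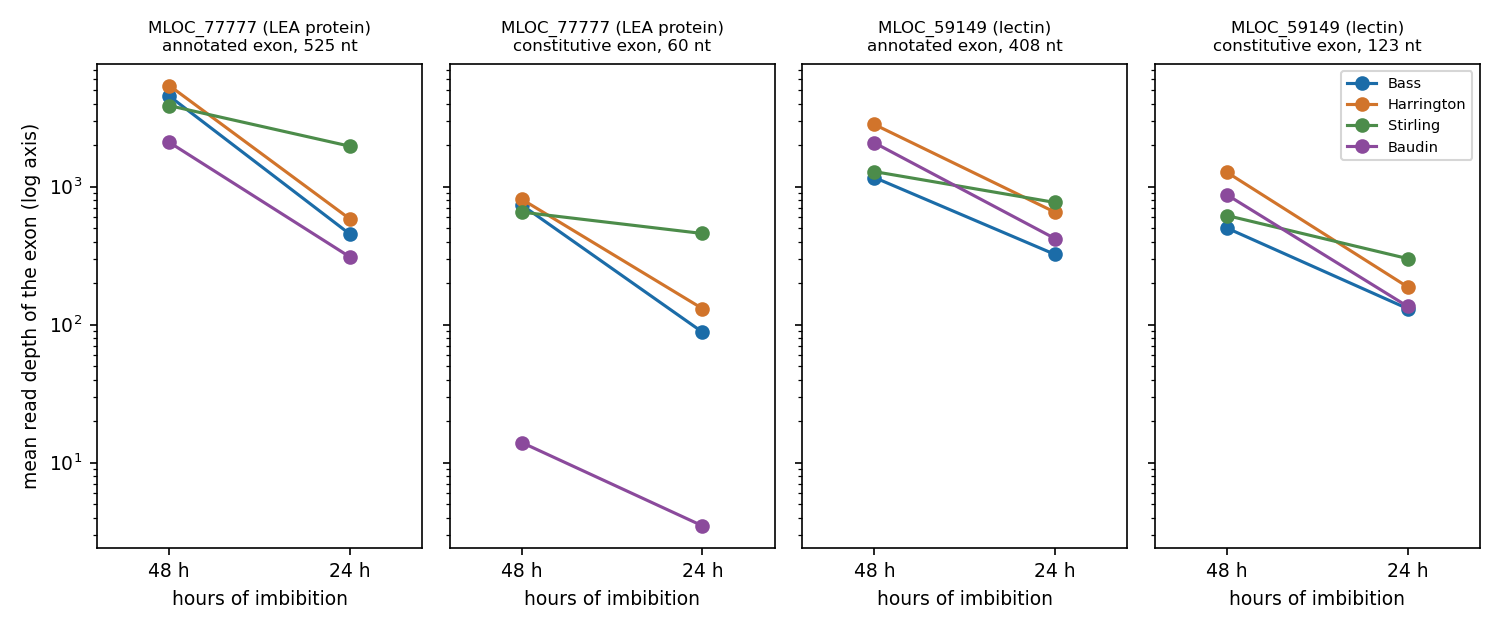
Mean read depth (y axis, log scale, not scaled for library size) of 4 exons of MLOC_77777 and MLOC_59149 at 48 h and 24 h, with a line for each variety. All lines are higher at 48 h, Stirling has the flattest line in each panel, and Baudin has depths of 14.0 and 3.48 in the 60 nt exon of the LEA gene.

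A fit across all 374 exons, from 189 genes, with limma and variety as a block, placed these changes among those of other exons. At an adjusted p under 0.05, 10.7% of the exons were higher at 48 h and 9.36% lower, which is 40 and 35 exons, or 28 and 79 exons with no scaling. All 4 exons of the LEA and lectin genes were among those called higher. The genes were chosen with earlier results of these data known, so these calls are not independent support. The log2 change of the 525 nt LEA exon was 2.77 ± 0.37 (SE; limma adjusted p = 0.00696), the third highest of the 374. The adjacent 60 nt exon changed by 2.22 ± 0.38 (SE; limma adjusted p = 0.0131). Exon 1 of the lectin gene changed by 1.95 ± 0.28 (SE; limma adjusted p = 0.00696) and exon 2 by 2.30 ± 0.30 (SE; limma adjusted p = 0.00696). The exons of 1 gene share their transcripts and are not independent. The 4 calls were kept without Bass or without Stirling and lost without Harrington or without Baudin. limma gave an adjusted p of 0.0549 for all 4 exons without Harrington, and without Baudin 0.0837 for the 60 nt exon and 0.0692 for the others. limma called 0 of the 374 exons without Harrington (127 at an unadjusted p under 0.05) and 0 without Baudin (105). With no variety block, limma gave the 60 nt exon an adjusted p of 0.347.

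**Figure D3:**
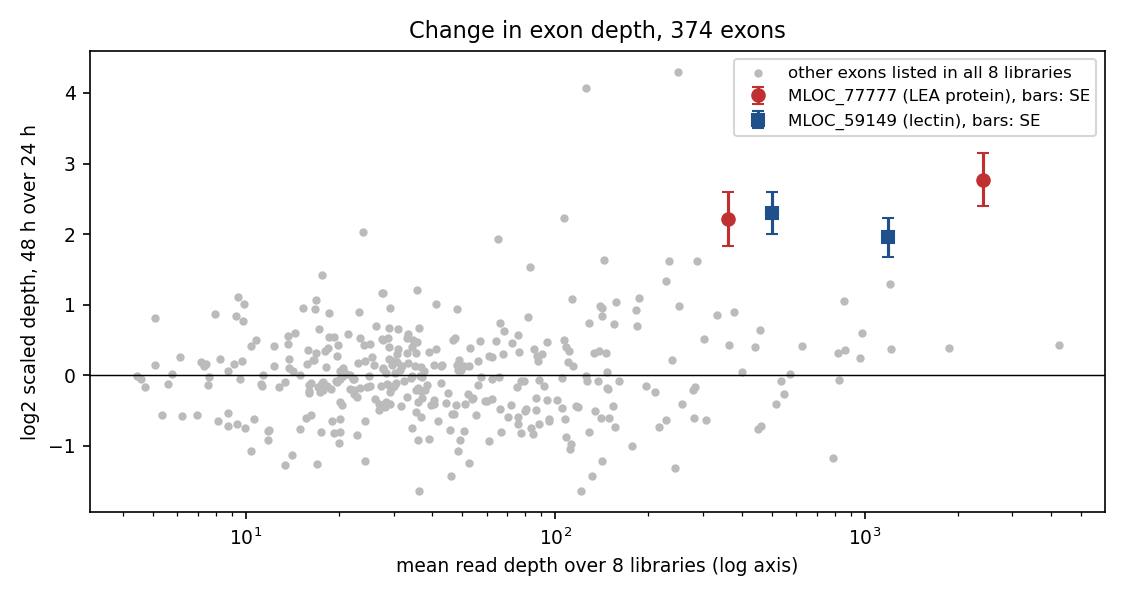
Change in scaled depth, log2 of 48 h over 24 h (y axis), against the mean depth over 8 libraries (x axis, log scale) for 374 exons, with the exons of MLOC_77777 and MLOC_59149 marked and their SE as bars. The 4 marked exons have changes between 1.95 and 2.77, among deep exons.

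The annotated exon of the LEA gene was deeper than its constitutive exon in every library, and far more so in Baudin. At 48 h the 525 nt exon had 150-fold the depth of the 60 nt exon in Baudin, 6.68-fold in Harrington, 6.17-fold in Bass and 5.92-fold in Stirling. At 24 h the ratio was 89.0-fold in Baudin, 4.47-fold in Harrington, 5.13-fold in Bass and 4.29-fold in Stirling. All bases of the 60 nt exon were covered in Baudin as well. Every base of a 60 nt exon lies near an edge. Bases 16 to 33 of the 525 nt exon had 18.8% of its mean depth in Stirling at 48 h. The part of exon length in these ratios was not tested. Reads shared with near-identical genes could not be checked. On the log2 scale, Baudin was above the mean of the other varieties by 4.31 for this pair of exons. Among the 136 exon pairs with A3S listed in all 8 libraries, the next highest such difference for Baudin, in either direction, was 1.01, and the median was 0.16. This pattern was noticed in these values and is given as a description, with 2 libraries of Baudin.

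Another LEA gene, MLOC_6950, has an exon of 60 nt beside an exon of 612 nt and was listed at 48 h in all 4 varieties. Its long exon had 3.56-fold the depth of the short one in Baudin, 3.53-fold in Harrington, 4.14-fold in Bass and 3.94-fold in Stirling. Baudin was therefore within the range of the other varieties for that gene. The cause of the difference in MLOC_77777 was not tested.

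**Figure D4:**
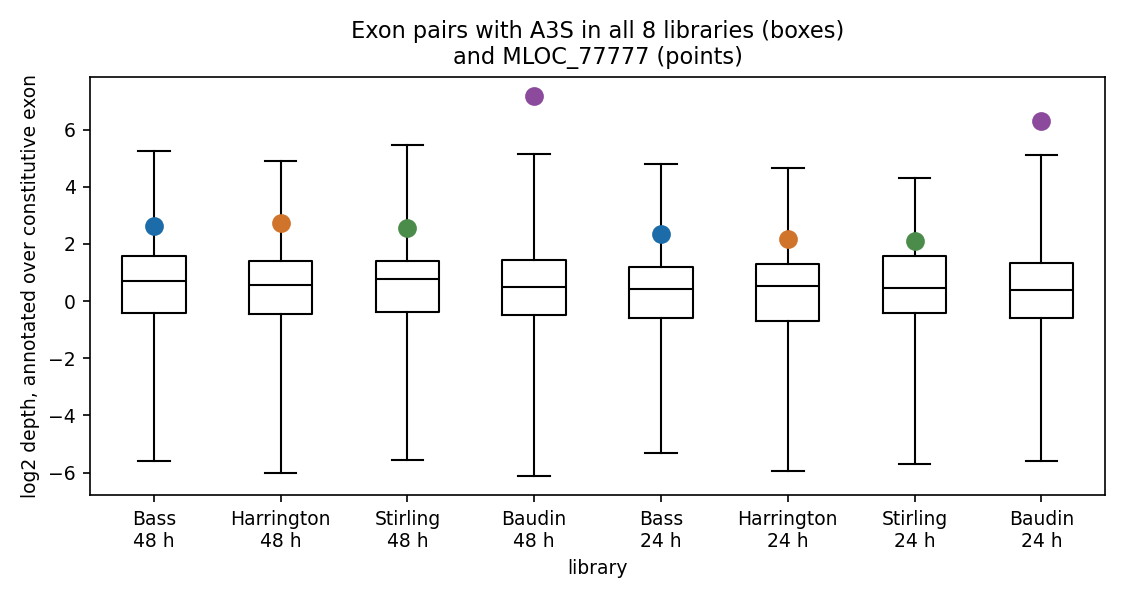
Log2 ratio of the depth of the annotated to the constitutive exon (y axis, 0.5 added to both) in each library, with MLOC_77777 as points. Boxes show the other exon pairs with A3S in all 8 libraries (median, quartiles, whiskers to the extremes). MLOC_77777 has ratios of 7.18 and 6.28 in Baudin at 48 h and 24 h, above every other pair, and ratios between 2.10 and 2.74 in the other libraries.

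The ratio of the LEA exons was also higher at 48 h than at 24 h in 4 of 4 varieties, by 0.55 ± 0.26 on the log2 scale (SD, n = 4; two-sided exact test by sign flips within pairs, p = 0.13). In the lectin gene, the ratio of exon 1 to exon 2 was lower at 48 h in 4 of 4 varieties, with a mean log2 difference of -0.35 ± 0.23 (SD, n = 4; two-sided exact test by sign flips within pairs, p = 0.13). The share of other exon pairs whose ratio moves the same way in 4 of 4 varieties is not known. In all, 6 exact paired tests were made on the 2 genes, and the Benjamini-Hochberg adjusted value is 0.13 for each.

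The depth profile along the lectin gene could be followed to exons 3 and 4 in the 5 libraries that listed an event there. In Harrington at 48 h, the depth was 1836 in exon 3 and 1760.5 in exon 4, and in Baudin at 48 h it was 1369 and 1356. At 24 h, the depths of exons 3 and 4 were 274 and 192 in Harrington, 359 and 229 in Stirling, and 123 and 126 in Bass. Relative to exon 1 of the same library, exon 4 had 62.3% of its depth in Harrington and 65.2% in Baudin at 48 h, against 29.4% in Harrington, 29.8% in Stirling and 38.9% in Bass at 24 h. Both libraries at 48 h were thus above the 3 libraries at 24 h, but the varieties at the times differ, and Harrington was the only variety with values at both times. The share of other exon pairs that separate in this way is not known. In Harrington the deposited depth was 4.32-fold higher at 48 h in exon 1, 6.76-fold in exon 2, 6.70-fold in exon 3 and 9.16-fold in exon 4. With a single variety at both times the paired test could not be made, and an unpaired comparison of these libraries was not tested.

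**Figure D5:**
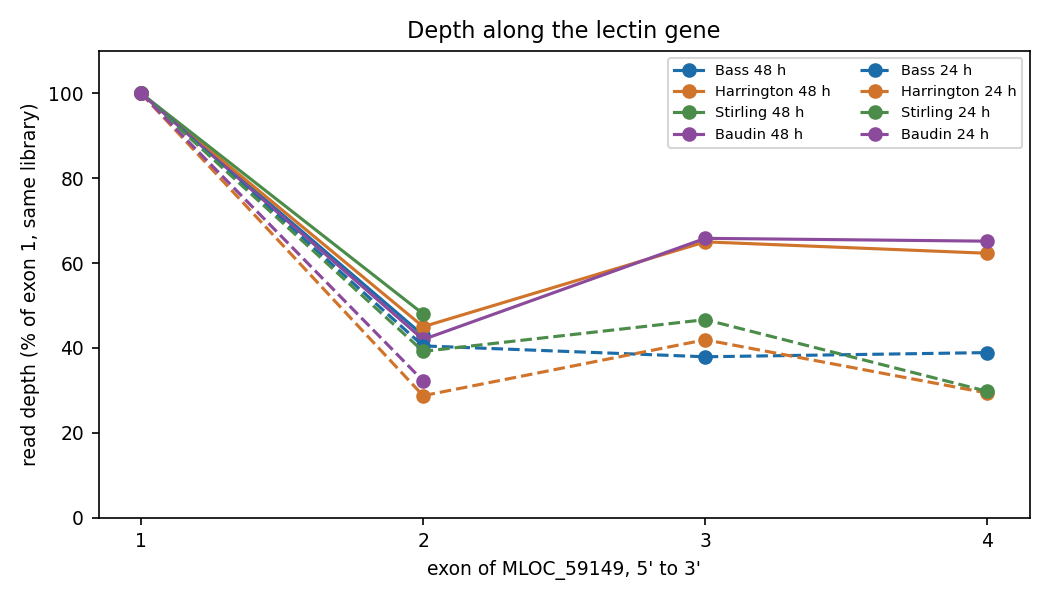
Read depth of the exons of MLOC_59149 as a percentage of the depth of exon 1 in the same library (y axis), by exon from 5' to 3' (x axis), with solid lines for 48 h and dashed lines for 24 h. Exons 3 and 4 are drawn for the 5 libraries that list them. Exon 4 has 62.3% and 65.2% at 48 h and between 29.4% and 38.9% at 24 h.

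Reads across each junction are not given, so the use of an alternative site was followed by the depth of the stretch between the competing sites, computed from the depths of both forms and compared with the part that both forms share. For the 6 nt event of the LEA gene, the stretch had a depth of 868 in Harrington, 801 in Bass, 709 in Stirling and 356 in Baudin at 48 h. At 24 h it had 103 in Harrington, 71.8 in Bass, 320.3 in Stirling and 59.8 in Baudin. These values followed the depth of the exon closely. As a percentage of the shared part they were 17.1% ± 0.965 at 48 h and 17.1% ± 1.55 at 24 h (SD, n = 4), with a lowest value of 15.7% and a highest of 19.1% over the 8 libraries. The log2 difference between the times was -0.01 ± 0.13 (SE; limma adjusted p = 0.963), so a change in the share of the stretch was not detected while the exon depth differed several-fold. For A3S, 0% of the 136 events tested by limma were called, and 15 had an unadjusted p under 0.05.

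The low depth at the start of the LEA exon was not limited to these 6 bases. In Stirling at 48 h, where 3 acceptors were listed, bases 1 to 6 had 18.3% of the mean depth of the exon, bases 7 to 15 had 14.3%, and bases 16 to 33 had 18.8%. In Baudin at 48 h, bases 1 to 6 had 17.0% and bases 7 to 66 had 25.6%. At 24 h, bases 1 to 3 had 22.5% in Stirling and 24.0% in Baudin, and bases 4 to 6 had 10.05% in Stirling and 14.6% in Baudin. Among the other A3S events listed in all 8 libraries that shorten the exon by 3 to 9 nt, the stretch had a median of 30.8% of the shared part, and 17 of these 61 events were below the LEA gene's mean of 17.1%. Depth at the edge of an exon also depends on how split reads were counted, which the sources used here do not state. The values are therefore not shares of transcripts.

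For the 44 nt event at the donor of lectin exon 1, the stretch had a depth of 1960.2 in Harrington, 802 in Bass, 766 in Stirling and 1338 in Baudin at 48 h. At 24 h it had 422 in Harrington, 245 in Bass, 598 in Stirling and 281 in Baudin. As a percentage of the shared part this was 62.9% ± 4.71 at 48 h and 68.8% ± 6.85 at 24 h (SD, n = 4). The ranges overlapped, from 56.7% to 66.9% at 48 h and from 61.9% to 75.7% at 24 h. The log2 difference was -0.13 ± 0.12 (SE; limma adjusted p = 0.556), where 5.41% of the 37 A5S events tested were called. Without Stirling the log2 difference was -0.03 and without Harrington -0.21. A change with time was not detected here either. In the 8 other A5S events that shorten an exon by 30 to 60 nt, the median was 61.1%, with values from 18.8% to 119%.

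The rarer events of the lectin gene have shorter stretches, at the edge of an exon, so their values are not ranked against that of the 44 nt event. The stretch of the 14 nt acceptor of exon 4 had 17.8% of the shared depth in Baudin at 48 h and 21.3% in Bass at 24 h. The 2 nt acceptor of the same exon had 45.9% in Harrington and 50.9% in Stirling at 24 h. At the donor of exon 3, the 2 nt stretch had 38.7% in Baudin at 48 h. The 4 nt extension into the intron in Harrington at 48 h had a depth of 167, which was 9.12% of the depth of exon 3. This stretch belongs to the alternative form, whereas in the shortening events the stretch belongs to the annotated form.

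Other genes of seed maturation and drying were taken from the descriptions in the supplementary tables of the study. Those tables hold genes reported as alternatively spliced, intron retention included, or as co-expressed with hormone responsive genes, so the list is not a sample of all genes. The list held 19 genes besides the 2 described here, for LEA proteins, oil body proteins, storage proteins and proteins that respond to abscisic acid or dehydration. Of these, 15 had no listed A3S or A5S event in any library, 4 were listed, and 3 of the 4 were listed at 48 h alone. Of the 4634 genes with A3S or A5S in any library, 23.2% were listed at 48 h alone, but these were not selected in the same way. None of the 19 had an exon listed in all 8 libraries, so 0 were tested for a change in depth.

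The LEA gene MLOC_6950 (LG04, minus strand) was listed in the 4 libraries at 48 h, with an exon of 60 nt lengthened by 6 nt at its donor in Harrington, Stirling and Baudin, and with an exon of 612 nt shortened by 240 nt at its acceptor in Bass. Its long exon had a depth of 1390.1 in Harrington, 1222 in Stirling, 1154 in Bass and 484 in Baudin. A vicilin gene, MLOC_57363 (LG01, minus strand), for a seed storage globulin, had the same exon lengthened by 38 nt at its donor in all 4 varieties at 48 h. The annotated exon had depths from 65.7 to 141, and the added 38 nt had depths from 2.42 to 9.16. Baudin at 48 h also listed another exon of this gene, shortened by 16 nt at its donor. The caleosin gene MLOC_62525, for a protein of the oil body surface, had 5 distinct events over 6 libraries, 3 at each time. The depths of its annotated exons were from 26.4 to 199. A gene of the seed storage 2S albumin superfamily, MLOC_64382, had a single event in Harrington at 48 h, in which the exon was 10 nt longer. The annotated exon had a depth of 76.8 and the added 10 nt had 3.40.

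Over the 8 libraries, the scaled depth of the LEA exon was most like that of MLOC_51316, an unknown protein (Pearson's r = 0.965), MLOC_64351, a katanin subunit A-like protein (r = 0.958), and MLOC_7378 (r = 0.951), among 188 other genes with 1 exon each. For the lectin exon they were MLOC_51556 (r = 0.968), MLOC_74792, a putative ubiquitin-fold modifier (r = 0.952), and MLOC_71896 (r = 0.943). The LEA and lectin exons had an r of 0.876 with each other, which was 16th in the order for the LEA exon and 12th for the lectin exon. These correlations describe 8 libraries that all genes share, 4 at each time.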

How the data were processed

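RNA of germinating embryos of 4 barley varieties at 48 h and 24 h was sequenced, with 1 library for each variety at each time. Alignment by the authors used SOAPaligner/SOAP2 and the Morex genome (IBSC), and SOAPsplice gave the junctions. The deposited values are other than counts: exons are listed by coordinates, with a mean read depth (a signal not scaled for library size) and the covered share of their bases. Reads per junction are not given, how exon depth was computed is not stated, and reads shared with near-identical genes could not be checked. Library totals are not in the lists, and the read statistics that the paper gives for each library were not used. Depth therefore stands for precision: the median depth of the 374 exons listed in all 8 libraries was between 32.4 and 41.8.

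The 2 genes and all gene lists were chosen with earlier results of these data known. Rows were matched by the identifier before the dot. Events were the same when the gene and all coordinates were the same. Depths were taken as log2(depth + 0.5). Each library was centred on the median, over the 374 exons, of the deviation from the exon's mean over the 8 libraries. Exact paired permutation tests flipped signs over varieties. limma 3.58.1 in R 4.3.3 was fitted on all exons, and on all events listed in 8 libraries for the stretch between sites (68 A3S values and 15 A5S values below 0 were set to 0), with Benjamini-Hochberg adjustment and a threshold of 0.05. The fit was tested on simulated data. Tables were made with Python 3.11.15 and pandas 2.3.3.

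The times were paired by variety, as the labels give it. The correlation of the deviations of a variety's 2 libraries from the time means was 0.05 in Harrington, 0.01 in Bass, 0.17 in Stirling and 0.42 in Baudin. Genes named were the 2 genes, the 3 genes most like each in depth, and the listed genes of the maturation list. The identifiers matched 0 rows of the RefSeq gene table (MorexV3), and no sequence was used here. Intron retention was not analysed here.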

Additional observations from a re-analysis of the deposited data

Results flagged for a closer look

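Among 20 sets of 4 varieties examined in the LEA and lectin genes, 3 had a value set apart from the others, and chance gives about 1 in 20. The sets share exons and libraries, so they are not independent and these shares cannot be compared by a test. The deposited depth of the 525 nt exon of MLOC_77777 at 24 h, not scaled for library size, was highest in Stirling, at 1967. The gap to the next variety took up 0.834 of the range. The scaled depths were 1766 in Stirling, 608 in Harrington, 384 in Bass and 272 in Baudin. Their gap took up a smaller share of the range, and a smaller share still as log2 values. By the same rule, Stirling was not set apart in scaled depth or in its log2 values. The log2 ratio of the 525 nt to the 60 nt exon of this gene was highest in Baudin at both times, at 7.18 at 48 h and 6.28 at 24 h, with gaps of 0.962 and 0.940 of the range. No cause was tested.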

How the results depend on the processing

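Both genes kept a higher depth at 48 h under every alternative. Leaving out 1 variety at a time gave a mean log2 change between 2.50 and 3.30 for MLOC_77777 and between 1.76 and 2.29 for MLOC_59149, and the exact paired test of 3 varieties cannot go below 0.25. Without the pairing by variety (no replicate block), the changes of 2.77 and 1.95 had an exact permutation p of 0.0286 for both, the smallest that 4 against 4 allow. The number of exons called by limma depended on the varieties: leaving out 1 at a time gave 0 to 33 exons higher (11 without Bass) and 0 to 20 lower (8 without Bass) at 48 h. With no scaling 79 exons were lower, and with exons listed in at least 6 libraries 54 were lower. For the stretch between sites, limma called 3 A3S events and 0 A5S events without the replicate block, with 13 and 6 at an unadjusted p under 0.05, and between 0 and 1 of either type with 1 variety left out. The difference for the LEA stretch had the opposite sign without Harrington (0.041) and without Baudin (0.056), and that for the lectin stretch lay between -0.21 and -0.03 with 1 variety left out. Neither passed the threshold in any of these fits. The causes were not tested. The number of distinct events was 5 for each gene with competing sites in place of coordinates and with a minimum depth of 10. Differences between varieties were not tested.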

Other observations

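In the LEA gene MLOC_6950, the computed depth of the 6 nt by which the 60 nt exon is lengthened was below 0, at -82.3 in Harrington, -61.2 in Stirling and -31.7 in Baudin at 48 h, so the depths of the annotated and alternative forms cannot both be plain means over the same reads there. None of the 27 listed events of MLOC_77777 and MLOC_59149 gave a value below 0. In the lists, 81 events carry a mark "noref" that the deposited column note does not explain, and 0 of them belong to these 2 genes.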
